A study of Mus musculus with 12 samples.

Results

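The 10 genes described here encode the adaptors and early signal carriers downstream of Toll-like receptors: the adaptors Myd88, Tirap, Ticam1 (TRIF) and Ticam2 (TRAM), the TRAF proteins Traf1, Traf2, Traf3 and Traf6, and the kinases Map3k7 (TAK1) and Map3k8 (TPL2). They were chosen by name, as the rows of the deposited expression table that carry these symbols, and all 10 of 10 were found among 12850 listed genes. None was left out by the filter on low levels. The libraries came from mouse thioglycollate-elicited peritoneal exudate cells (PECs), which are mostly macrophages drawn into the peritoneum. The study asked what the S513A mutation of Regnase-1, an RNase encoded by Zc3h12a that degrades inflammatory mRNAs, does to the transcriptome of these cells. RNA of PECs was sequenced after 0, 4 or 8 hr of culture with LPS at 100 ng/ml. The labels name no library kept for 4 or 8 hr without LPS. Changes with LPS below are therefore differences between times, in which LPS and time in culture cannot be told apart. Cells were either wild type at Zc3h12a (WT) or carried the homozygous S513A knock-in (Zc3h12a S513A/S513A, written S513A), both on the C57BL/6 background, giving 6 groups with 2 libraries each. The knock-in is present in every cell of the animal and not in macrophages alone. It changes a codon, so gene-level values cannot check the genotype labels.

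LPS is sensed by Tlr4, which recruits adaptors in pairs. Tirap brings Myd88 to the receptor at the cell surface, and Myd88 passes the signal through IRAK kinases to Traf6 and TAK1, which activate NF-kB and MAP kinases. Ticam2 brings Ticam1 to the internalised receptor, and Ticam1 signals through Traf3 and TBK1 to interferon genes. Map3k8 is held by the NF-kB precursor Nfkb1 until the IKK complex frees it to activate the ERK pathway. Traf1 and Traf2 are better known from TNF receptor signalling, and Traf1 is a textbook NF-kB target.

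Each library held 9525979 to 12439960 reads in listed genes, recovered from the deposited values, which were log2 CPM (counts relative to library size after scaling). The 10 genes held 86 to 2159 reads in a library, far above 3 reads, which corresponds to log2 CPM of -2.04 to -1.30. Il6 and Tnf, taken as checks of the LPS response, rose by 8.65 and 6.12 on the log2 scale at 4 hr. All 6 macrophage markers were listed, at a summed 16013 to 26231 CPM. Of the 6 neutrophil markers 1 was listed, S100a8, at 20.2 to 35.05 CPM in WT at 0 hr, 43.6 to 63.5 at 4 hr and 81.6 to 99.0 at 8 hr. In S513A it was at 51.0 to 54.1, then 51.0 to 106, then 31.8 to 84.0. The summed B cell (4 of 5 listed), T cell (1 of 5), mast cell (3 of 4) and mesothelial (3 of 4) markers reached at most 8.87, 2.16, 3.20 and 2.26 CPM. Markers of dendritic cells (3 of 4 listed) went from 1.89 to 2.50 CPM at 0 hr to 5.40 to 7.14 at 4 hr and 7.98 to 10.3 at 8 hr, and those of eosinophils (2 of 4 listed) went from 15.3 to 18.5 CPM at 0 hr to 3.62 to 4.58 at 8 hr. The eosinophil sum was mainly 1 gene, and in the dendritic cell sum 1 gene had the widest range. Over the 12 libraries the dendritic cell marker Ccr7 ran from 0.88 to 7.49 CPM, while Flt3 and Zbtb46 reached at most 1.76 and 1.57. The eosinophil marker Siglecf ran from 2.98 to 18.3 CPM, while Ccr3 reached at most 0.78. The part of all these cell types in the changes below was not tested.

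RefSeq promoter sequence, from 250 bases before the start of the transcript to 50 after it, was found for 8 of the 10 genes. Tirap had windows at different starts, which made 9 windows. Of the 8 genes, 4 are shown: Traf1, whose level changed most with LPS, and the 3 in which one of the searched motifs was found. Capitals mark the match. All are from GRCm38.p6 and run 5′ to 3′ on the strand of the gene. Traf1 is at chr2:34961723-34962022 on the minus strand, Myd88 at chr9:119339969-119340268 on the minus strand, Traf3 at chr12:111166120-111166419 on the plus strand and Map3k7 at chr4:31963857-31964156 on the plus strand.
Traf1: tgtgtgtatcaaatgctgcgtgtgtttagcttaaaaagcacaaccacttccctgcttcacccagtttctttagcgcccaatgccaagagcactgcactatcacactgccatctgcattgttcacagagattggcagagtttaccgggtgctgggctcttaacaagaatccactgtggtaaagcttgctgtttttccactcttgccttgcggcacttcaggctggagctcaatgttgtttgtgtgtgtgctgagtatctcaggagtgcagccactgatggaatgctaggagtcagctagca
Myd88: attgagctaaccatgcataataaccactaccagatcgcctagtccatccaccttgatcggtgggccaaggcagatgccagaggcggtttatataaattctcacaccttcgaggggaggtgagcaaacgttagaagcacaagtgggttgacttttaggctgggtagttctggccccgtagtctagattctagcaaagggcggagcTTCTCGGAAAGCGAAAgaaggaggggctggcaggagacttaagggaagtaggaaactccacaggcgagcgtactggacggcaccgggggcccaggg
Traf3: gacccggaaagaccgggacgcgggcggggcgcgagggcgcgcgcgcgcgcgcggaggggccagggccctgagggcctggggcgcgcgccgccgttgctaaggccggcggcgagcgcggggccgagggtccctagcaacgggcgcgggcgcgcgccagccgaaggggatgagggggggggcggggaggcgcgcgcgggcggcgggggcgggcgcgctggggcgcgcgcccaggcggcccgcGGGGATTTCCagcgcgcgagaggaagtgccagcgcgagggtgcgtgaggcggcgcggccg
Map3k7: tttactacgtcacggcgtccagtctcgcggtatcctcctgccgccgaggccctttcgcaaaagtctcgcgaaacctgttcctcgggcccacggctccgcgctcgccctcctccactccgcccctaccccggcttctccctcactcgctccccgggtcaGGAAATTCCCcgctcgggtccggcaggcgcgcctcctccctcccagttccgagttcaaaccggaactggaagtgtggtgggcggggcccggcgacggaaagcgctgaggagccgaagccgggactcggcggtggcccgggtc

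4 motifs were searched on both strands: the NF-kB consensus, the interferon response element core, TGANTCA (the AP-1 site) and TTCNNNGAA (the STAT site). The Myd88 promoter held GAAAGCGAAA from -40 to -31, counted in bases from the start, and TTCTCGGAA from -46 to -38, and these matches share bases. The start used for Myd88 lies inside the annotated gene, which on the minus strand begins upstream at chr9:119341411. Sequence around that end was not searched. The NF-kB consensus was matched from -10 to -1 in Traf3 and from -92 to -83, on the opposite strand, in Map3k7. None of the 4 was found in the windows of Traf1, Traf2, Traf6, Tirap or Ticam1. Among all 32851 promoters of this length the NF-kB consensus was present in 8.46%, the interferon response element core in 3.44%, TGANTCA in 7.81% and TTCNNNGAA in 8.3%. The windows also differed in base composition. That of Traf1 had 48.7% G and C with 4 CG pairs and that of Traf3 84.0% with 59 CG pairs, against medians of 52.7% and 7 over all promoters.

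All 10 genes rose after 4 hr of LPS, in a comparison in which 29.1% of all 11885 genes tested rose. Traf1 rose most, 18.9-fold, followed by Myd88 (3.19-fold), Traf2 (2.76-fold), Tirap (2.19-fold) and Map3k8 (2.12-fold). The other 5 rose by less than Map3k8, from 1.19-fold for Traf6 to 1.46-fold for Ticam1. For 9 of the 10, all but Ticam2, every library at 4 hr lay above every library at 0 hr, which held for 25.7% of all genes. The median log2 difference of the 10 genes was 0.81 against 0.02 for all genes tested. Differences are 4 hr minus 0 hr, as the mean of the WT and S513A differences, tested with limma with Benjamini-Hochberg adjustment over all genes tested. The p-values measure only the spread between libraries, since the labels do not say that they came from separate animals. In RNA of mixed cells, more cells of a type and more RNA per cell cannot be told apart.

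**Figure D1:**
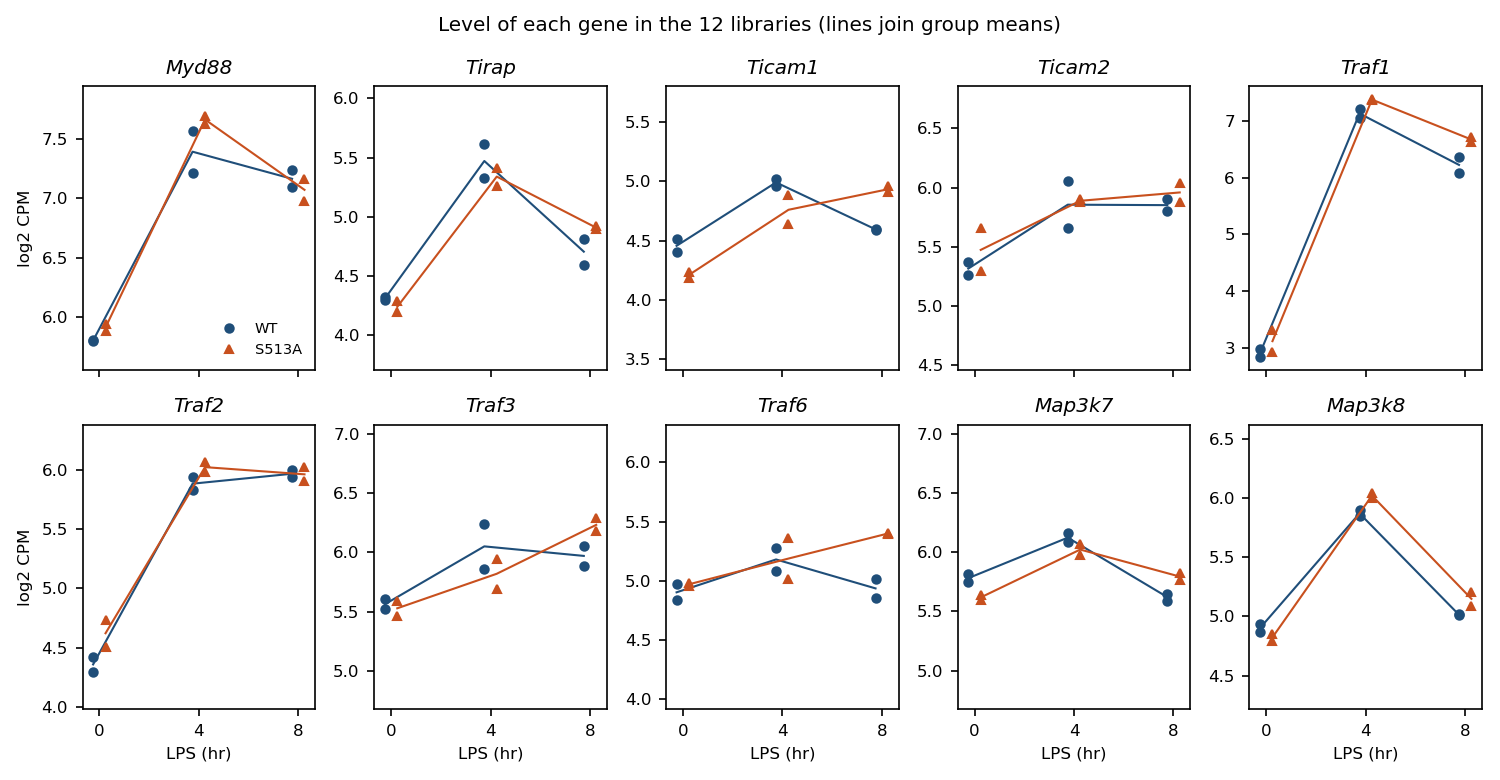
Level of each of the 10 genes in the 12 libraries, as log2 CPM against hours of LPS. Circles are WT libraries, triangles S513A libraries, and lines join group means; the axes span different levels, and Traf1 climbs from 2.83 to 3.31 at 0 hr to 7.05 to 7.39 at 4 hr in both genotypes.

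Myd88, the adaptor shared by most Toll-like receptors and the IL-1 receptor, was high before stimulation and rose further. In WT PECs its level was 5.80 and 5.80 log2 CPM at 0 hr, 7.57 and 7.22 at 4 hr, then 7.09 and 7.24 at 8 hr. The S513A libraries were at 5.88 and 5.94, then 7.63 and 7.70, then 6.98 and 7.16. Every stimulated library lay above every unstimulated one. The log2 difference was 1.67 at 4 hr (95% confidence interval 1.48 to 1.87, limma Benjamini-Hochberg adjusted p = 6.21e-08) and 1.26 at 8 hr (1.06 to 1.46, adjusted p = 7.37e-07). Exons of Myd88 share 290 bases, 11.3% of their length, with Acaa1a on the other strand, so that reads there may be counted for either or neither gene. Acaa1a itself differed by 0.05 at 4 hr and by 0.46 at 8 hr on the log2 scale (limma Benjamini-Hochberg adjusted p = 0.589 and 3.52e-04).

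Tirap, the bridge from Tlr4 to Myd88, rose and then fell back. WT libraries were at 4.30 and 4.32 log2 CPM at 0 hr, 5.33 and 5.61 at 4 hr, then 4.82 and 4.60 at 8 hr. S513A PECs held Tirap at 4.19 and 4.29, then 5.42 and 5.26, then 4.92 and 4.89. The 3 time points did not overlap. The log2 difference from 0 hr was 1.13 at 4 hr (limma Benjamini-Hochberg adjusted p = 1.73e-06) and 0.53 at 8 hr (adjusted p = 7.36e-04). Tirap shares 446 exonic bases (9.0%) with the antisense gene Gm39318 and 39 (0.8%) with Srpr, which rose by 0.60 at 4 hr.

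Ticam1 and Ticam2, the adaptor pair of the TRIF branch, moved less than Myd88. Ticam1 was at 4.51 and 4.40 log2 CPM in WT at 0 hr, 5.02 and 4.96 at 4 hr, then 4.60 and 4.59 at 8 hr. In S513A the levels of Ticam1 were 4.19 and 4.24, 4.88 and 4.64, and 4.96 and 4.91. WT fell back nearly to its starting level by 8 hr, while both S513A libraries at 8 hr lay above both at 4 hr. The pooled log2 difference of Ticam1 was 0.54 at 4 hr (95% confidence interval 0.36 to 0.72) and 0.43 at 8 hr (0.25 to 0.61).

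Ticam2 was at 5.26 and 5.38 log2 CPM in WT at 0 hr, 6.06 and 5.66 at 4 hr, then 5.90 and 5.80 at 8 hr. Its S513A levels were 5.29 and 5.66, 5.90 and 5.88, and 6.04 and 5.88. The WT pair at 4 hr and the S513A pair at 0 hr were widely spaced, and 1 of the 4 stimulated libraries at 4 hr reached down to the highest unstimulated library. Ticam2 rose by 0.48 at 4 hr and 0.51 at 8 hr (limma Benjamini-Hochberg adjusted p = 0.00365 and 0.00311). It shares 838 exonic bases (14.5%) with Tmed7 on the same strand, and Tmed7 rose by 0.22 at 4 hr (adjusted p = 0.0351).

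Among the TRAF proteins, Traf1 changed most. It was the least abundant of the 10 genes before LPS, with 2.98 and 2.83 log2 CPM in WT and 2.92 and 3.31 in S513A. At 4 hr it was at 7.21 and 7.05 in WT and 7.36 and 7.39 in S513A, and at 8 hr at 6.09 and 6.36 in WT and 6.63 and 6.72 in S513A. The 3 time points were far apart with no overlap. The log2 difference was 4.24 at 4 hr (95% confidence interval 4.01 to 4.47, limma Benjamini-Hochberg adjusted p = 1.98e-10) and 3.44 at 8 hr (3.21 to 3.66, adjusted p = 1.22e-09).

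Traf2, which joins TNF receptors to ubiquitin ligases, rose by 4 hr and stayed there. Its levels were 4.42 and 4.30 log2 CPM in WT and 4.51 and 4.74 in S513A at 0 hr, 5.94 and 5.83 against 6.07 and 5.98 at 4 hr, and 5.94 and 6.00 against 5.90 and 6.02 at 8 hr. The log2 differences from 0 hr were 1.46 and 1.48 (limma Benjamini-Hochberg adjusted p = 7.97e-08 and 1.01e-07).

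Traf3, which carries the TRIF signal to TBK1, rose by 0.39 at 4 hr and 0.56 at 8 hr on the log2 scale. The WT libraries were at 5.52 and 5.60 log2 CPM at 0 hr, 5.86 and 6.24 at 4 hr, then 6.06 and 5.88 at 8 hr, and the S513A libraries at 5.47 and 5.59, 5.95 and 5.69, and 6.29 and 6.18. The 4 hr call (limma Benjamini-Hochberg adjusted p = 0.00743) was lost under quantile normalization (adjusted p = 0.0634).

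Traf6, the ubiquitin ligase of the MyD88 branch, had the smallest rise at 4 hr, 0.25 on the log2 scale (limma Benjamini-Hochberg adjusted p = 0.0493). The WT libraries were at 4.83 and 4.97 log2 CPM at 0 hr, 5.08 and 5.28 at 4 hr, then 4.86 and 5.01 at 8 hr, and the S513A libraries at 4.96 and 4.98, 5.36 and 5.01, and 5.40 and 5.40. The call was not stable: without the filter on low levels the adjusted p was 0.0519, under quantile normalization 0.205, and leaving out any 1 library other than WT 4 hr replicate 1 or S513A 4 hr replicate 2 ended it. Without S513A 4 hr replicate 1 the difference was 0.16.

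Of the kinases, Map3k8 rose by 1.08 at 4 hr (95% confidence interval 0.93 to 1.24, limma Benjamini-Hochberg adjusted p = 2.80e-07) and was most of the way back by 8 hr. It was at 4.94 and 4.87 log2 CPM in WT and 4.85 and 4.79 in S513A at 0 hr, 5.84 and 5.90 against 6.00 and 6.04 at 4 hr, and 5.01 and 5.02 against 5.09 and 5.21 at 8 hr. The groups followed the same order in both genotypes. At 8 hr the remaining difference was 0.22 (adjusted p = 0.0259), and this call was lost under quantile normalization (adjusted p = 0.114), after removal of length and GC trends (0.08, adjusted p = 0.318) and on leaving out any 1 library of 0 hr, either WT library of 8 hr or S513A 8 hr replicate 2.

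Map3k7, the kinase that joins both branches to NF-kB and MAP kinases, rose by 0.37 at 4 hr (limma Benjamini-Hochberg adjusted p = 7.76e-04) and at 8 hr differed from 0 hr by 0.01 (95% confidence interval -0.14 to 0.16). Its levels were 5.75 and 5.81 log2 CPM in WT and 5.60 and 5.64 in S513A at 0 hr, 6.09 and 6.16 against 6.07 and 5.98 at 4 hr, and 5.65 and 5.59 against 5.76 and 5.82 at 8 hr.

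**Figure D2:**
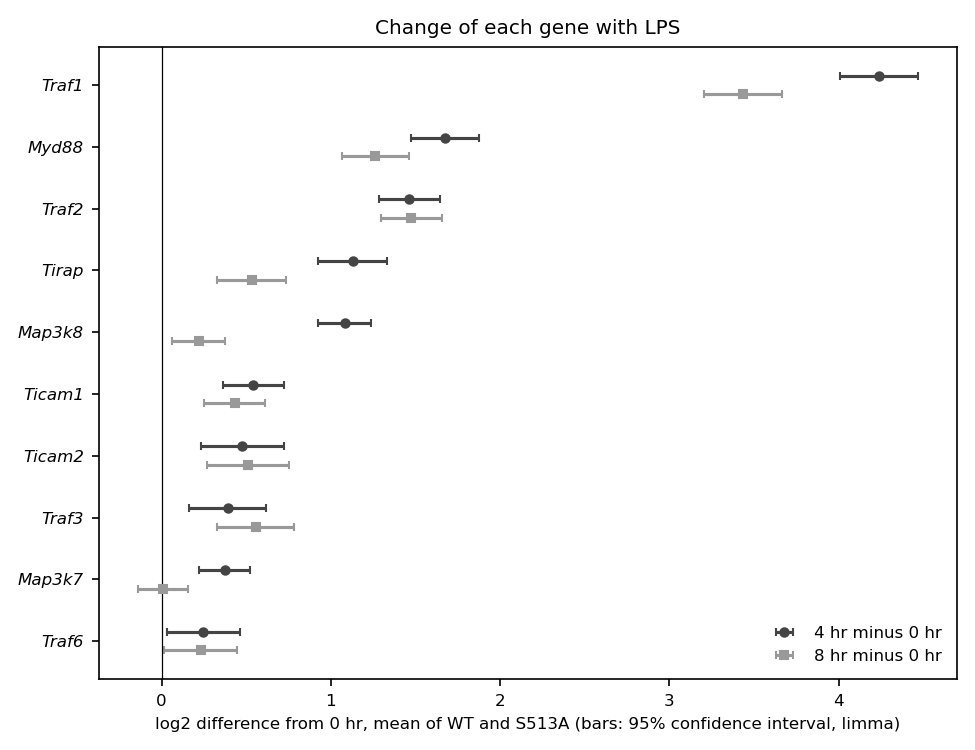
Log2 difference from 0 hr for each gene, as the mean of the genotypes; circles are 4 hr, squares 8 hr, and bars the 95% confidence interval from limma. Traf1 stands apart at 4.24 and 3.44, and Map3k7 returns to 0.01 at 8 hr.

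After 8 hr of LPS 8 of the 10 genes were still higher than at 0 hr, where 24.5% of all genes were, and none was lower. Libraries at 8 hr and 0 hr did not overlap for 8 of them, where 23.0% of all genes rose without overlap. Traf6 (0.23, limma Benjamini-Hochberg adjusted p = 0.0739) and Map3k7 (adjusted p = 0.934) did not pass the threshold. The median of the 10 genes was 0.52, against -0.00070 for all genes. The 4 and 8 hr comparisons share the 0 hr libraries. In WT alone 9 genes rose at 4 hr and 5 at 8 hr, against 22.6% and 19.4% of all genes, and in S513A alone 7 and 9, against 23.1% and 20.9%.

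From 4 to 8 hr 5 genes fell, where 12.8% of all genes fell, and none rose. Map3k8 fell by 0.86 on the log2 scale, Traf1 fell by 0.80, Tirap fell by 0.60, Myd88 fell by 0.41 and Map3k7 fell by 0.36, with limma Benjamini-Hochberg adjusted p from 2.03e-05 for Map3k8 to 0.00718 for Myd88. Traf2 (0.01), Ticam2 (0.03), Traf6 (-0.02), Ticam1 (-0.11) and Traf3 (0.17) did not pass the threshold. For Traf2 the 95% confidence interval of the change was -0.17 to 0.19.

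Scaled to the longest coding transcript, the order of levels changed with LPS. At 0 hr Myd88 was highest at 29.6 CPM per kb (28.4 to 31.4 over 4 libraries) and Traf1 lowest at 2.37 (2.07 to 2.89), and from Map3k8 (11.3) down through Ticam2, Map3k7, Traf2, Ticam1 and Traf3 (6.61) each overlapped its neighbour. At 4 hr Myd88 was at 95.03 and Traf1 at 44.6, second and above Map3k8 (24.0) and Traf2 (20.4), all without overlap. At 8 hr Myd88 was at 71.1, Traf1 at 25.8 and Traf2 at 20.6, and the last pair overlapped. Traf6 was lowest at 4 hr (5.92) and 8 hr (5.90), overlapping Tirap (6.12) at 8 hr. The place of Tirap depended on the transcript: with the median coding length its rank at 0 hr was 3 instead of 9. At 8 hr Ticam1 ranked above Map3k7 by the longest length and below it by the median length. By the median length Map3k8 (24.0) and Traf2 (23.9) overlapped at 4 hr, and Traf1 (40.3) and Traf2 (24.1) did not overlap at 8 hr.

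**Figure D3:**
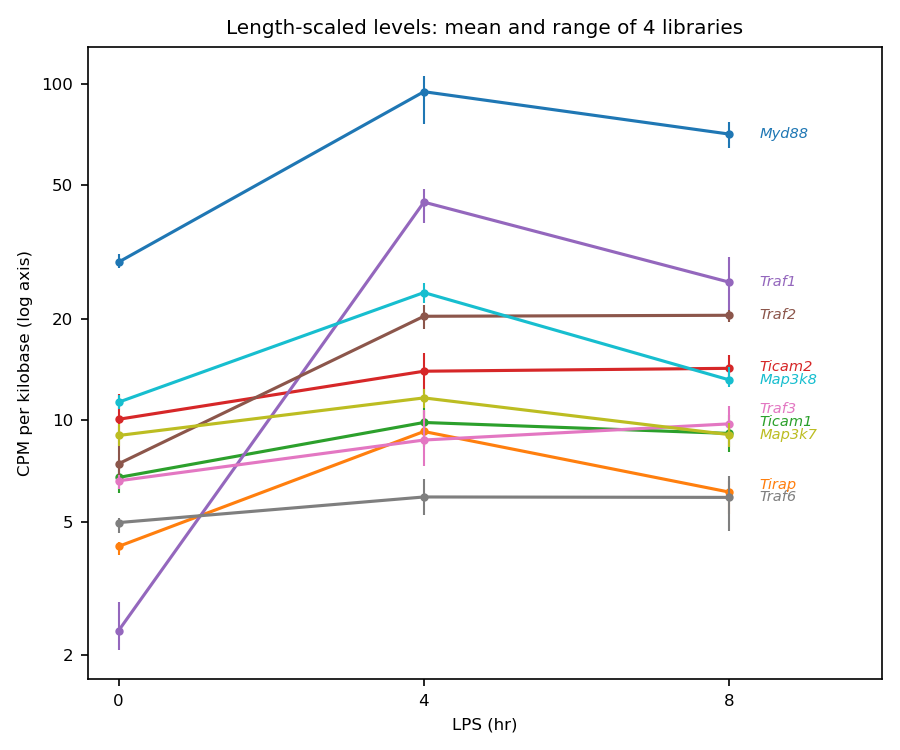
Level of each gene in CPM per kilobase of the longest coding transcript, on a log axis, against hours of LPS; points are means and vertical bars the range over 4 libraries of both genotypes. Traf1 goes from the lowest place (2.37) to the second (44.6) by 4 hr, below Myd88 (95.03).

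Across the 12 libraries, the genes whose log2 CPM followed Traf1 most closely were Naa25 (Pearson r = 0.9986), Parp9 (0.9984) and Tnf (0.9982), and for Myd88 they were Gadd45b (0.9962), Slfn2 (0.9955) and Stxbp3 (0.9953). These libraries share the time course, and most of the variation behind each r is the step from 0 hr to LPS, so the values are descriptive.

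The S513A mutation changed none of the 10 genes past the threshold. The count was 0 of 10 at 0, 4 and 8 hr and also when averaged over time, where limma called, in this order, 0.0337%, 0.0168%, 0.0337% and 0.0673% of all genes. With voom weights it was 0 of 10 in each as well. The spread was not equal in all groups: fitted on the 0 hr libraries alone, 693 of 11885 genes (5.83%) differed between genotypes at 0 hr, and still 0 of 10. At an unadjusted p under 0.05 the counts were 1, 0, 3 and 2 of 10, against 7.98%, 7.01%, 12.5% and 6.71% of all genes. Traf2 differed by 0.26 at 0 hr (95% confidence interval 0.01 to 0.52), which was 0.15 without S513A 0 hr replicate 2. At 8 hr the differences were 0.45 for Traf1 (0.12 to 0.77), 0.46 for Traf6 (0.16 to 0.77) and 0.34 for Ticam1 (0.08 to 0.60), each with a limma Benjamini-Hochberg adjusted p of 0.395 at 8 hr. Averaged over time, Traf1 differed by 0.30 (0.11 to 0.49) and Traf6 by 0.18 (0.0049 to 0.35). The intervals of the other genes at 8 hr ran from -0.37, the lower bound for Myd88, to 0.58, the upper bound for Traf3.

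For 7 of the 10 genes the S513A pair at 8 hr exceeded the WT pair without overlap, and for none was it below, where 27.9% of all genes lay above and 25.8% below. The earlier times were mixed. At 0 hr S513A lay above WT for 2 genes and below for 4, and at 4 hr above for 4 and below for 2. The shares of all genes at those times are not given here. Other values also differed between genotypes at 8 hr, some of them already at 0 hr. Summed macrophage markers were at 16013 to 21488 CPM in S513A and 22796 to 23737 in WT, and B cell markers at 4.23 to 5.09 and 5.32 to 8.87. Eosinophil markers (3.62 to 3.79 in S513A and 4.56 to 4.58 in WT), dendritic cell markers (7.98 to 8.72 and 9.40 to 10.3) and mesothelial markers (0.49 to 0.73 and 0.90 to 1.19) were also lower in S513A without overlap, while the neutrophil, T cell and mast cell markers overlapped. B cell markers were already lower in S513A at 0 hr (3.44 to 4.56 against 5.30 to 7.00 in WT). Mesothelial markers were too (0.80 to 1.10 against 1.73 to 2.26). Eosinophil markers were instead higher in S513A at 0 hr (17.4 to 18.5 against 15.3 to 16.5), as was S100a8. The macrophage, dendritic cell, T cell and mast cell markers overlapped at 0 hr. No single mesothelial marker exceeded 0.94 CPM in any library, so that sum lies near the floor. Lyz2 alone ran from 9006 to 20943 CPM over the 12 libraries and makes up most of the macrophage sum. The part of these markers in the differences was not tested. At 8 hr the slope of log2 values on log2 transcript length was 0.227 and -0.0073 in S513A and -0.0815 and -0.138 in WT. Each slope used a library's deviation from the mean of its time point. With length and GC trends removed from each library the 8 hr differences were 0.34 for Traf1, 0.31 for Traf6 and 0.22 for Ticam1.

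The replicates differed along an unlabelled factor that held 67.6% of the variance between replicates. Within groups its scores were 0.471 and -0.471 in WT at 4 hr, -0.399 and 0.399 in S513A at 8 hr, and -0.315 and 0.315 in S513A at 4 hr. In the other groups they were at most 0.1051 in size. Replicate differences correlated with log2 transcript length at -0.702 in WT at 4 hr, 0.645 in S513A at 8 hr and 0.593 in S513A at 4 hr. In the other groups these correlations ran from -0.144 to 0.321. The part of transcript length in the factor was not tested. How this factor was entered decided the count at 8 hr. When each library's score was taken from its deviation from its group mean, 4 genes were called at 8 hr (Ticam1, Traf1, Traf3 and Traf6) and 1 at 4 hr (Myd88), but 20.8% and 12.6% of all genes were called as well. That score has a mean of 0 in every group, so it narrows the spread without adjusting the differences between groups. A second score, from the deviation from the mean of the time point, was added after those calls were seen, and with it 0 of the 10 were called at each time, against 0.0926% of all genes at 8 hr.

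**Figure D4:**
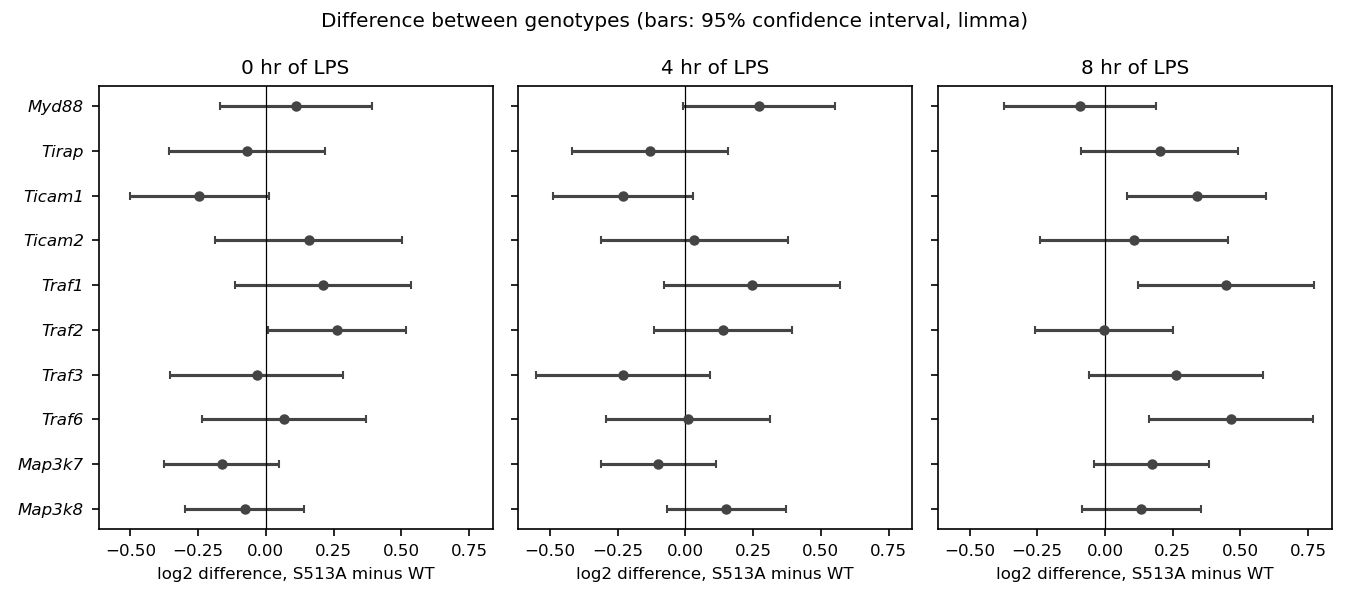
Log2 difference, S513A minus WT, for each gene at 0, 4 and 8 hr of LPS; bars are the 95% confidence interval from limma. Most intervals include 0; those of Traf2 at 0 hr (0.26) and of Traf1 (0.45), Traf6 (0.46) and Ticam1 (0.34) at 8 hr lie above it before adjustment.

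A genotype effect on the LPS response was tested as an interaction. None of the 10 genes passed, nor did any gene tested (0.0%). The count over all genes at 8 hr rested on S513A 8 hr replicate 2: without that library 651 of 11885 genes (5.48%) were called, though still 0 of the 10. At an unadjusted p under 0.05 there were 0 of 10 at 4 hr and 2 of 10 at 8 hr, against 1.21% and 20.2% of all genes. At 8 hr Ticam1 rose by 0.72 in S513A and differed by 0.14 in WT, an interaction of 0.58 (95% confidence interval 0.22 to 0.95, limma Benjamini-Hochberg adjusted p = 0.193). Map3k7 differed by 0.18 in S513A and by -0.16 in WT, an interaction of 0.34 (0.04 to 0.64, adjusted p = 0.224). Both were called, with 29.9% of all genes, under the factor scored within groups, and neither under the factor scored within time points. Removing length and GC trends left 0.34 for Ticam1 and 0.10 for Map3k7.

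The wider pathway around the 10 genes moved in both directions. Of 67 genes on this list 65 were listed and 63 tested, without Traf4 and Traip, which were under the filter, and Sarm1 and Tlr5, which were not listed. At 4 hr 35 rose and 10 fell, with a median of 0.53, and at 8 hr 34 rose and 9 fell, with a median of 0.33. Over all genes 29.1% rose and 26.7% fell at 4 hr, and 24.5% and 21.6% at 8 hr. Averaged over time, 0 of the 63 differed between genotypes. Tlr4, the LPS receptor, fell by 0.31 at 4 hr, while its co-receptor Cd14 rose by 3.75, and among the 13 receptors and co-receptors 7 rose and 2 fell, Tlr13 by most (-0.67).

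Between receptor and TRAF proteins, 4 of 8 IRAK kinases and regulators rose at 4 hr and 2 fell, led by the ubiquitin ligases Peli1 (3.13) and Peli2 (-1.82). Among 7 other TRAFs and TRAF partners 4 rose and 1 fell, with Tank, the scaffold of TBK1, at 2.23 and Traf3ip3 at -2.04. Of the 5 partners of TAK1, Tab2 rose by 1.34 and Tab1 fell by 0.34, and 6 of 7 IKK and TBK1 kinases and adaptors rose, Ikbke by 1.57. Nfkb1, whose product holds Map3k8, rose by 2.77.

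Further down, 4 of 10 other MAP3 and MAP2 kinases rose at 4 hr and 3 fell, Map3k5 by 1.90 and Map2k6 by -3.69. Among 5 RIP and IAP proteins 2 rose and 1 fell at both times, and at 8 hr Birc3, a ubiquitin ligase bound by Traf2, was higher by 1.69 and Ripk3 lower (-1.01). Of 6 deubiquitinases and brakes 4 rose at 4 hr, Usp18 by 4.49, and at 8 hr Otulin was lower (-0.44).

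**Figure D5:**
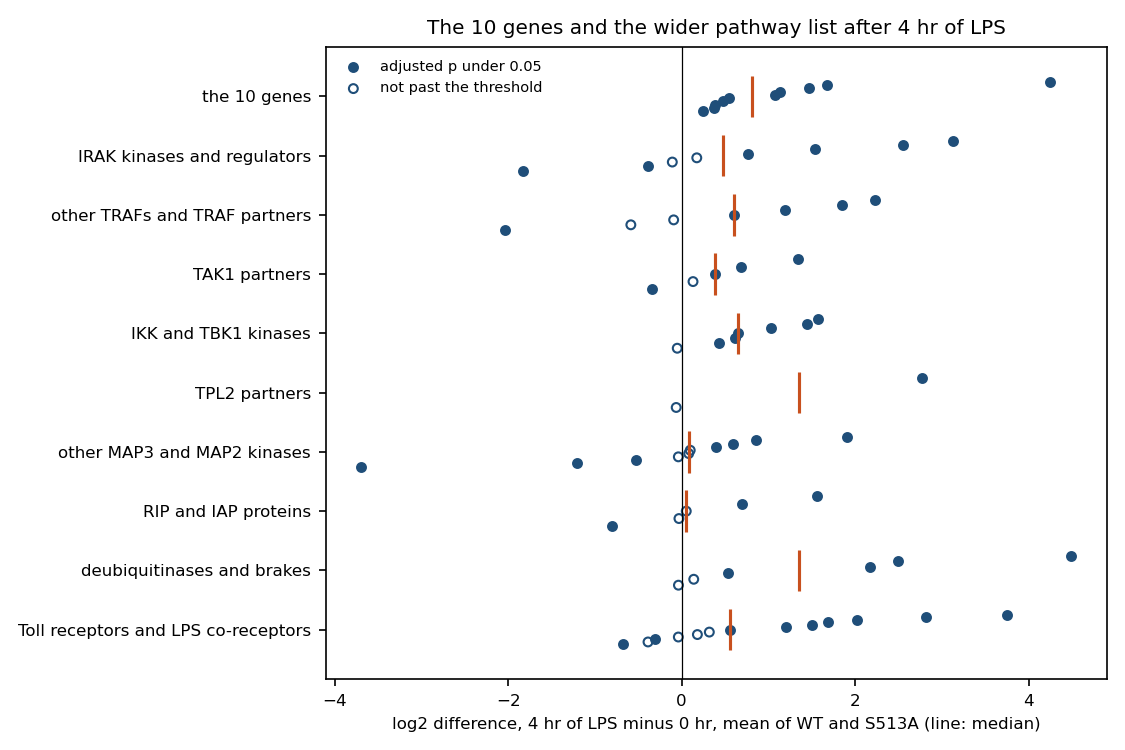
Log2 difference, 4 hr of LPS minus 0 hr, for the 10 genes and for the 63 tested genes of the wider list by role; filled points passed the threshold, open points did not, and lines are medians. All 10 genes lie above 0, whereas the roles of the wider list spread from -3.69 (Map2k6) to 4.49 (Usp18).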

How the data were processed

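PolyA RNA was sequenced from 12 libraries, 2 for each genotype and time. The authors aligned reads with HISAT2 to mm10 as unstranded pairs and counted them with featureCounts 1.6.3, and deposited log2 CPM. The normalization program, the gene filter and the strand and overlap settings of featureCounts itself are not given in the sources used here. Reads were recovered as whole numbers from the deposited log2 values, with the 0.5 read that had been added, to give depth and floors. Floors from them cover counting error only. The confidence intervals come from limma on the log2 values and rest on the spread between libraries.

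Genes with at least 1 CPM in 2 libraries (11885) were tested with limma 3.58.1 in R 4.3.3, as means of the 6 groups over all 12 libraries with a trended prior, two-sided, with Benjamini-Hochberg adjustment and a threshold of 0.05. The program was tested on simulated data. Alternatives covered filters, pseudocount, scaling, blocking, prior, weights and each library left out. The removal of length and GC trends and both replicate factor scores were added after the data were seen, the second score after the calls of the first. Named genes are the 10, the largest called rise and fall in each role of the wider list, the 3 closest genes to Traf1 and Myd88, and Zc3h12a, Tnf and Il6. Tlr4 and the genes overlapping a member were named after their values were seen. The genes and lists were chosen with earlier results of these data known. Zc3h12a rose by 2.80 at 4 hr.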

Additional observations from a re-analysis of the deposited data

Results flagged for a closer look

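For 5 genes, samples of different groups moved in opposite directions with every library on its side. The share of all genes with such a pattern was not computed, so the count has no background beside it. With 2 libraries a side separation is common: at 8 hr S513A lay above WT without overlap for 27.9% of all genes and below for 25.8%. From 4 to 8 hr Ticam1 differed by -0.40 in WT and 0.17 in S513A, and Traf6 by -0.24 and 0.21, on the log2 scale, and these differences between genotypes were not tested. Map3k7 differed from 0 hr at 8 hr by -0.16 in WT and 0.18 in S513A, which is the interaction of 0.34 (limma, Benjamini-Hochberg adjusted p = 0.224).

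The difference S513A minus WT also changed sign between times. For Ticam1 it was -0.25 before LPS, -0.23 after 4 hr and 0.34 after 8 hr, for Map3k7 -0.16, -0.10 and 0.17, for Map3k8 -0.08, 0.15 and 0.13, and for Tirap -0.07 at 0 hr and 0.20 at 8 hr. Tested against 0 hr, the change at 8 hr was 0.58 for Ticam1, 0.34 for Map3k7, 0.21 for Map3k8 and 0.27 for Tirap (limma, Benjamini-Hochberg adjusted p = 0.193, 0.224, 0.374 and 0.388), and the change between 4 and 8 hr was not tested.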

How the results depend on the processing

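Over the alternatives other than the replicate factor scored within groups, 8 to 10 of the 10 genes rose at 4 hr, 7 to 9 rose at 8 hr, 5 to 6 changed from 4 to 8 hr, and 0 differed between genotypes or in the interaction. With that factor S513A and WT differed for 0 genes unstimulated, for 1 after 4 hr, for 4 after 8 hr and for 1 when averaged over time, the interaction count at 8 hr was 2, and 1 gene of the wider list differed on average. That score narrows the spread by construction. With the score within time points, chosen later, each of these counts was 0. Leaving out a library gave 9 to 10 rises at 4 hr and 7 to 9 at 8 hr.

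Small differences changed sign. For Map3k7 at 8 hr the value was -0.00749 under median-ratio scaling, -0.11 under quantile normalization, -0.00875 without length and GC trends, and -0.0074 to 0.024 with a library left out. From 4 to 8 hr Traf6 was at 0.0036 under quantile normalization, 0.029 without length and GC trends and -0.10 to 0.072 with a library left out, Traf2 at -0.11 without those trends and -0.018 to 0.041 with a library left out, and Ticam2 at -0.067 to 0.13. In WT at 8 hr Traf6 was at -0.070 under quantile normalization and -0.044 to 0.11 with a library left out, and Map3k8 at -0.092 without those trends. For these sign changes the cause was not tested.

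With the replicate number as a replicate block, 9 genes rose at 4 hr and 8 at 8 hr, and the Traf6 call at 4 hr (limma, Benjamini-Hochberg adjusted p = 0.0673) was lost. Blocking by genotype and number gave 10 and 8. The labels do not say whether a number marks the same cells across times, and correlations of replicate differences do not settle it. Over 8353 genes these ran from -0.358 to 0.155 between times in WT and from -0.119 to 0.76 in S513A. Between a WT and an S513A group they went as low as -0.749. With 2 libraries a group, differences between genotypes as large as 0.46 (Traf6 at 8 hr) did not pass the adjusted threshold.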
